A study of Mus musculus with 9 samples.

Results

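Immune checkpoint genes encode inhibitory receptors of immune cells and the ligands that engage them. The genes described here are Pdcd1, Cd274, Pdcd1lg2, Havcr2, Lgals9, Lag3, Ctla4 and Tigit, 8 of the 19938 mouse genes measured. They were chosen by symbol, and where a gene has several probe sets the rule takes the one with the highest mean over all 9 arrays. Each of the 8 had a single probe set that carried its symbol alone, so no measured value decided between probe sets. The list itself was drawn up with earlier results of these data known, in which Pdcd1, Lgals9 and Havcr2 had already been seen to differ between fusions. Their differences and adjusted p values are therefore given as a description of these arrays.

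Expression was measured in BaF3, a mouse haematopoietic cell line that depends on interleukin-3, after infection with retroviruses carrying a fusion kinase gene and sorting on EGFP fluorescence. The groups were BCR-RET, FGFR1OP-RET and BCR-ABL (named BCR-ABL1P210 in the series design), with 3 Affymetrix MouseGene 1.0 ST arrays each. In BCR-RET and FGFR1OP-RET the RET kinase is fused to another protein, and the title of the series ties both to chronic myelomonocytic leukaemia. BCR-ABL is known from chronic myeloid leukaemia. The sources used here do not say whether arrays of 1 fusion hold RNA of different infections or cultures, or whether the medium held interleukin-3, so the p values rest on a spread between arrays that may be technical. Cells without a fusion were not analysed here, and every difference is between fusions.

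PD-1, the product of Pdcd1, is a receptor of activated lymphocytes and some myeloid cells. When bound by PD-L1 (Cd274) or PD-L2 (Pdcd1lg2) it recruits the phosphatase SHP-2 and dampens signals from antigen receptors. TIM-3 (Havcr2), for which galectin-9 (Lgals9) is a described ligand, is found on T cells, dendritic cells and mast cells. LAG-3 binds MHC class II, CTLA-4 binds CD80 and CD86, and TIGIT binds the poliovirus receptor PVR. Several of these genes respond to interferon, through sites for IRF and STAT factors.

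Of the 8 genes, 4 passed the test in at least 1 comparison of fusions. Pdcd1 was higher with BCR-RET than with either of the other fusions, Lgals9 was higher with BCR-RET than with BCR-ABL, Havcr2 was lower with FGFR1OP-RET than with BCR-ABL, and Cd274 was narrowly higher with FGFR1OP-RET than with BCR-ABL. Only the Pdcd1 calls held without each array in turn. The test was limma's moderated test, two-sided, on the deposited log2 values of all 19938 genes, with p values adjusted by Benjamini-Hochberg and a threshold of 0.05. All values below are log2 RMA values or differences between them, ± is the SD of 3 arrays, SE is the standard error of a difference, and intervals are 95% intervals of single differences, not adjusted for the number of genes. The median SE over all genes was 0.07.

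The promoters of these 4 genes are shown because they are the members that passed the test. Each sequence runs 5′ to 3′ from 250 bases before to 50 bases after the gene's start, is from RefSeq, and has in capitals every match on either strand to the interferon regulatory factor (IRF) motif AANNGAAA, the core of the interferon-stimulated response element (a pair of GAAA runs with any 2 bases between them) or the STAT site TTCNNNGAA.
Pdcd1 promoter (GRCm38.p6, chr1:94052504-94052803, minus strand): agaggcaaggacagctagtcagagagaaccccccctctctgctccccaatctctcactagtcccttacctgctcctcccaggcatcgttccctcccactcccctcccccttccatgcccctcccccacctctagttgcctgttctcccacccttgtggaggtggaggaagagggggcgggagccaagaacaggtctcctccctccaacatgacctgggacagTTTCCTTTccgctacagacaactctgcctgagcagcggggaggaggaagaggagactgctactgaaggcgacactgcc
Cd274 promoter (GRCm38.p6, chr19:29367188-29367487, plus strand): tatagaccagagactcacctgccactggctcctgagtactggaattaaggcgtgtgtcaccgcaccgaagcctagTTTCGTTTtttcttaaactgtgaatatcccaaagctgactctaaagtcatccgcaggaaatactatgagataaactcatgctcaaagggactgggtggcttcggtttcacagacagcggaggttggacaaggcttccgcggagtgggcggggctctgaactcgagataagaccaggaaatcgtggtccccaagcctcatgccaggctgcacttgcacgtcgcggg
Lgals9 promoter (GRCm38.p6, chr11:78984875-78985174, minus strand): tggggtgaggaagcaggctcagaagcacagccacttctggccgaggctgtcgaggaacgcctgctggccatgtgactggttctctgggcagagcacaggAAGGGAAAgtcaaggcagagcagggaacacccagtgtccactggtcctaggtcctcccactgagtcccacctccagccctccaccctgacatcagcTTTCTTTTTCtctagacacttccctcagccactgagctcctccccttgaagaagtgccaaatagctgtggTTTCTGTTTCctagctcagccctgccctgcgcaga
Havcr2 promoter (GRCm38.p6, chr11:46454681-46454980, plus strand): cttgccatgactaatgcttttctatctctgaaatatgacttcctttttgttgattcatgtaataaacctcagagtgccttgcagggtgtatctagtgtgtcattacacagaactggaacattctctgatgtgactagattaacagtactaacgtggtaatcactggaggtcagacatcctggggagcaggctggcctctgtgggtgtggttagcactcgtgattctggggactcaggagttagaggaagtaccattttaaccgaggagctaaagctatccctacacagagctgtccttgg

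The Pdcd1 promoter held 1 IRF motif, whose first base lies 28 bases before the start. The Cd274 promoter held 1, at 175 bases before the start used for that gene. That start is not the outer end of the gene. The RefSeq span of Cd274 begins at 29362107, upstream of the printed stretch. The Lgals9 promoter held 3 IRF motifs, and 2 of them were part of response element cores. The Havcr2 promoter held no match to any of the 3 motifs. Of 32851 RefSeq promoters of the same length, 23.9% held the IRF motif, 3.44% the response element core and 8.3% the STAT site, which none of the 4 promoters held. Every core match also contains an IRF motif. A match is a stretch of letters in the reference genome, and binding of a factor was not measured. Among the other 4 genes, Pdcd1lg2 held 1 IRF motif and Ctla4 and Tigit held no match, and promoters were found for 7 of the 8.

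Pdcd1 (probe set 10356866, chromosome 1) set BCR-RET apart from the other fusions. Its values were 9.36, 9.40 and 9.14 with BCR-RET, 7.39, 7.37 and 7.45 with FGFR1OP-RET, and 7.18, 7.17 and 7.30 with BCR-ABL. Every BCR-RET array lay above every other array, by more than the whole spread within any group. The means were 9.30 ± 0.14 in BCR-RET cells, 7.40 ± 0.04 in FGFR1OP-RET cells and 7.22 ± 0.07 in BCR-ABL cells (n = 3 each). Pdcd1 was 4.24-fold higher in BCR-RET than in BCR-ABL cells (log2 difference 2.08, SE 0.07, limma adjusted p = 2.86e-06) and 3.72-fold higher in BCR-RET than in FGFR1OP-RET cells (1.90, SE 0.07, adjusted p = 6.88e-06). It had the lowest p of all genes in both of these comparisons. In bulk RNA, fewer cells of a kind and less RNA per cell cannot be told apart. Both calls held without each of the 9 arrays in turn, with differences of 2.04 to 2.16 against BCR-ABL and 1.85 to 1.97 against FGFR1OP-RET.

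The FGFR1OP-RET and BCR-ABL values of Pdcd1 also did not overlap. That difference, 0.19 (interval 0.02 to 0.35), did not pass over all genes (adjusted p = 0.426). The order of the fusions for Pdcd1 was thus BCR-RET, then FGFR1OP-RET and BCR-ABL, with the last pair not separated by the test. The values of that pair, 7.17 to 7.45, lay below the median of all genes, 8.19. Without detection calls they may be background, and the fold differences above rest on them.

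**Figure D1:**
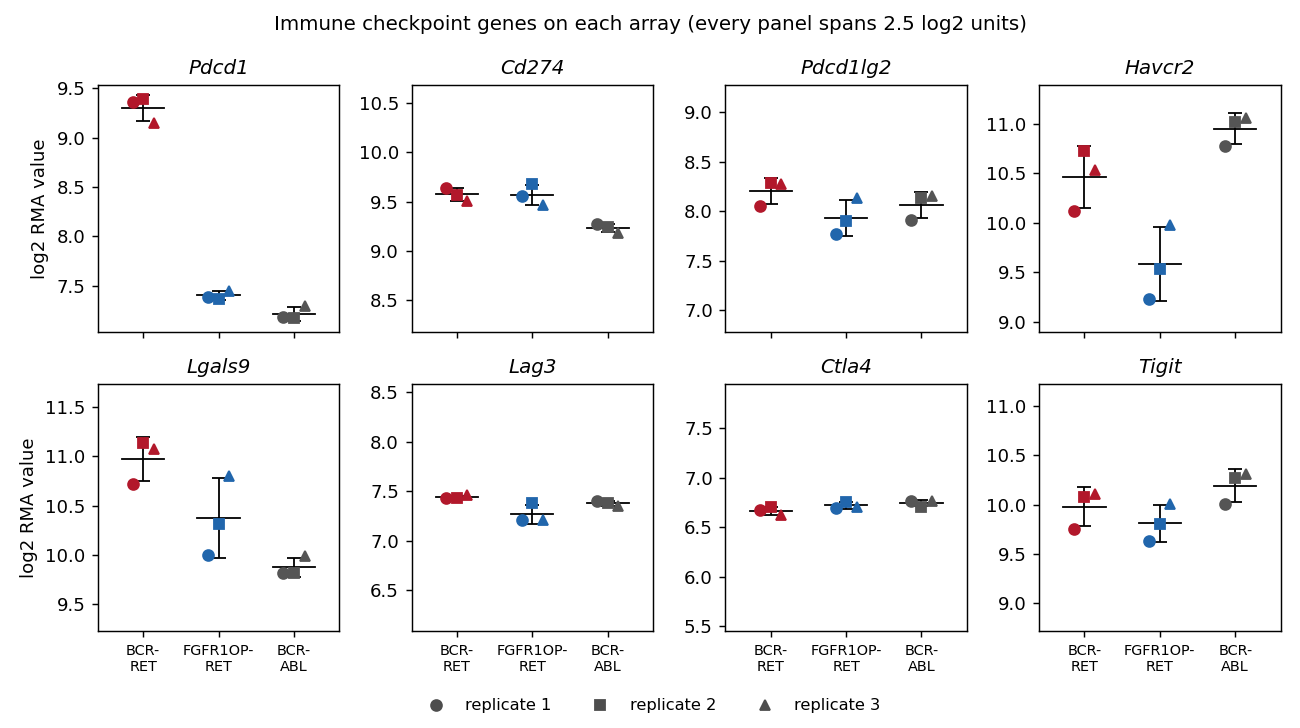
The log2 RMA value of each checkpoint gene on each array, by fusion, with replicate numbers as symbols, group means as horizontal lines and SDs of 3 arrays as error bars; each panel spans the same number of log2 units on its own axis. The 3 BCR-RET arrays of Pdcd1 sit between 9.14 and 9.40, above all other arrays, while Ctla4 stays between 6.63 and 6.76.

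Of the 2 PD-1 ligand genes, Cd274 passed in 1 comparison and Pdcd1lg2 in none. Cd274 (probe set 10462390), which encodes PD-L1, had values of 9.64, 9.57 and 9.51 with BCR-RET, 9.56, 9.68 and 9.47 with FGFR1OP-RET and 9.27, 9.24 and 9.19 with BCR-ABL. All 6 arrays with a RET fusion lay above the 3 BCR-ABL arrays, and the 2 RET fusions overlapped. Against BCR-ABL the difference was 0.34 for BCR-RET (SE 0.06, adjusted p = 0.0574) and 0.33 for FGFR1OP-RET (SE 0.06, adjusted p = 0.0446), so nearly equal differences fell on either side of the threshold. The same BCR-ABL arrays enter both. Between the RET fusions it was 0.01, with an interval of -0.14 to 0.15.

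The 2 differences of Cd274 from BCR-ABL sat close enough to the threshold for single arrays and settings to decide them. With the replicate number as a block, the BCR-RET difference passed (adjusted p = 0.0173); it also passed with array weights (0.0109), with a filter on dim probe sets (0.0489) and without FGFR1OP-RET replicate 2 or 3 (0.0472 and 0.0481). Without each of the other arrays it did not pass (up to 0.230). The FGFR1OP-RET call held, of the 9 arrays, only without FGFR1OP-RET replicate 3 (0.0386). It passed with array weights and the dim filter (0.0219 and 0.0371). The block over all groups also passed it (0.0128), though replicate numbers did not pair in this comparison. With the block in a fit of these 2 groups alone, a setting chosen after seeing the data, it did not pass (0.0628). Nor did it pass with quantile normalization repeated (0.0809), a variance trend (0.0580), all probe sets tested (0.113) or only the 2 groups fitted (0.115). Leaving out a BCR-ABL array lost it (0.113, 0.179 and 0.188 for replicates 1, 2 and 3), as did leaving out a BCR-RET array (0.0551, 0.0904 and 0.0616) or replicate 1 or 2 of FGFR1OP-RET (0.102 and 0.146). The differences themselves stayed between 0.31 and 0.37 for BCR-RET and between 0.28 and 0.38 for FGFR1OP-RET without each array in turn.

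Pdcd1lg2 (probe set 10462398), the PD-L2 gene and the next protein-coding gene after Cd274 on chromosome 19 in RefSeq, did not pass in any comparison. Its values were 8.06, 8.29 and 8.27 with BCR-RET, 7.77, 7.90 and 8.13 with FGFR1OP-RET and 7.92, 8.13 and 8.16 with BCR-ABL, and all 3 groups overlapped. The difference from BCR-ABL was 0.14 for BCR-RET (interval -0.10 to 0.38, adjusted p = 0.628) and -0.14 for FGFR1OP-RET (interval -0.37 to 0.10, adjusted p = 0.741). Between BCR-RET and FGFR1OP-RET it was 0.27 (interval 0.04 to 0.51, adjusted p = 0.281).

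For Havcr2 and Lgals9, a receptor and its described ligand, the mean was highest with BCR-ABL for the receptor and with BCR-RET for the ligand. Havcr2 (probe set 10375443), which encodes TIM-3, had values of 10.12, 10.73 and 10.53 with BCR-RET, 9.23, 9.54 and 9.98 with FGFR1OP-RET and 10.78, 11.02 and 11.06 with BCR-ABL. The 3 groups did not overlap, with FGFR1OP-RET lowest and BCR-ABL highest. In FGFR1OP-RET cells Havcr2 was 2.59-fold lower than in BCR-ABL cells (log2 difference -1.37, SE 0.20, adjusted p = 0.0113). This call was lost without BCR-ABL replicate 2 or 3 (adjusted p = 0.0764 and 0.0664) and without FGFR1OP-RET replicate 2 (0.0733).

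The place of BCR-RET between the other fusions for Havcr2 depended on the fit. BCR-RET differed from BCR-ABL by -0.49 (interval -0.93 to -0.05, adjusted p = 0.387). When replicate numbers entered as a block, the adjusted p of that difference was 0.0560 over all groups and 0.0319, past the threshold, in a fit of these 2 groups alone, a setting chosen after seeing the data. BCR-RET differed from FGFR1OP-RET by 0.88 (interval 0.44 to 1.32, adjusted p = 0.0767), which passed without BCR-RET replicate 1 (difference 1.05, adjusted p = 0.0499) or FGFR1OP-RET replicate 3 (1.08, adjusted p = 0.0320). That difference passed in 4 of 10 other settings, among them quantile normalization repeated (adjusted p = 0.0466) and array weights (0.0291). The others of these were fits with the block, where numbers did not pair.

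Lgals9 (probe set 10388902), which encodes galectin-9, had values of 10.72, 11.14 and 11.07 with BCR-RET, 9.995, 10.31 and 10.80 with FGFR1OP-RET and 9.82, 9.82 and 9.99 with BCR-ABL. BCR-ABL arrays were lowest, narrowly without overlap (the nearest pair being 9.995 with FGFR1OP-RET and 9.988 with BCR-ABL), and replicate 3 of FGFR1OP-RET reached into the BCR-RET range. Lgals9 was 2.14-fold higher in BCR-RET than in BCR-ABL cells (log2 difference 1.10, SE 0.18, adjusted p = 0.0335). The FGFR1OP-RET mean, 10.37 ± 0.41, lay between the others and differed from BCR-ABL by 0.49 (interval 0.09 to 0.90, adjusted p = 0.387). BCR-RET differed from FGFR1OP-RET by 0.61 (interval 0.20 to 1.01, adjusted p = 0.179), and by 0.82 with adjusted p = 0.0347 without FGFR1OP-RET replicate 3.

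The Lgals9 call against BCR-ABL rested on most of the arrays. Leaving out a BCR-ABL array lost it (adjusted p = 0.139, 0.178 and 0.112 for replicates 1, 2 and 3), as did leaving out replicate 2 or 3 of BCR-RET (0.130 and 0.154) or replicate 2 of FGFR1OP-RET (0.0721). It was also lost when arrays were shifted to a common median (difference 1.04, adjusted p = 0.0568) or all probe sets were tested (0.0738). The difference stayed between 1.02 and 1.23 without each array in turn.

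The remaining receptor genes did not pass in any comparison. Tigit (probe set 10439527) had values of 9.75, 10.08 and 10.11 with BCR-RET, 9.63, 9.80 and 10.01 with FGFR1OP-RET and 10.01, 10.27 and 10.30 with BCR-ABL. Groups overlapped, up to a shared value of 10.01 between FGFR1OP-RET and BCR-ABL. FGFR1OP-RET differed from BCR-ABL by -0.38 (interval -0.66 to -0.10, adjusted p = 0.319), and BCR-RET by -0.21 (interval -0.49 to 0.07, adjusted p = 0.539).

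Lag3 (probe set 10547906) and Ctla4 (probe set 10346790) varied little. Over all 9 arrays Lag3 ran from 7.21 to 7.46 and Ctla4 from 6.63 to 6.76. Lag3 means were 7.44 ± 0.02 in BCR-RET cells, 7.27 ± 0.10 in FGFR1OP-RET cells and 7.38 ± 0.03 in BCR-ABL cells. The widest Lag3 difference, between BCR-RET and FGFR1OP-RET, was 0.17 (interval 0.05 to 0.30, adjusted p = 0.211), and the ranges of these 2 groups did not overlap. Ctla4 means were 6.67 ± 0.04, 6.72 ± 0.03 and 6.74 ± 0.03 in BCR-RET, FGFR1OP-RET and BCR-ABL cells, and its 3 intervals together spanned -0.18 to 0.08. The Ctla4 value 6.71 appeared identically on 3 arrays, 1 in each group. Detection calls were not used here, so whether the 2 transcripts were detected at all is unknown.

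**Figure D2:**
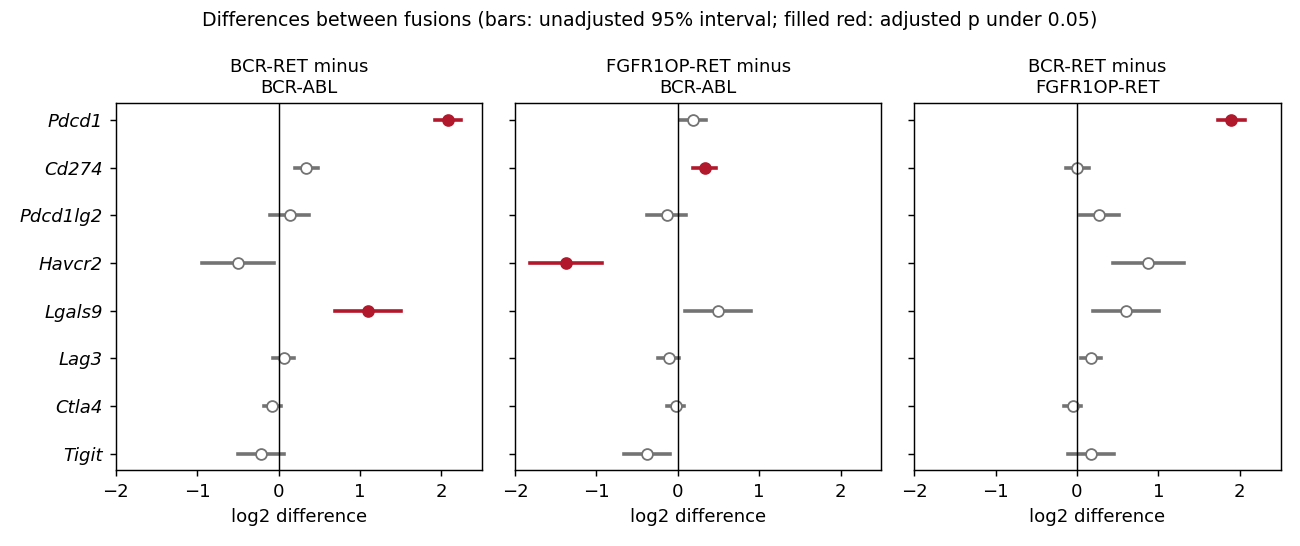
Log2 differences of the 8 checkpoint genes in the 3 comparisons, with unadjusted 95% intervals as bars and filled red points where the adjusted p over all genes was under 0.05. Pdcd1 stands at 2.08 and 1.90 in the comparisons that hold BCR-RET on top, and Havcr2 at -1.37 in FGFR1OP-RET minus BCR-ABL.

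Counted over the list, BCR-RET set against BCR-ABL gave 2 of 8 genes, both higher, beside 0.587% of all genes tested (0.371% higher, 0.216% lower). In FGFR1OP-RET against BCR-ABL 1 was higher and 1 lower, beside 1.02% of all genes tested (0.787% being higher, 0.231% lower). In BCR-RET against FGFR1OP-RET 1 was higher, beside 1.33% (0.476% were higher, 0.853% lower). Since the genes were chosen with results known, these counts are not set against the background as evidence. Array ranges were apart for 5, 4 and 3 of the 8 genes in the same order of comparisons, against 16.6%, 12.1% and 15.3% of all genes. The median difference over the 8 genes was 0.10, -0.07 and 0.22, against 0.03, 0.00145 and 0.03 over all genes. The first 2 comparisons share the BCR-ABL arrays, and each RET fusion also enters 2 comparisons.

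Several of these genes moved with the replicate number of the arrays. Replicate 1 was the lowest array in all 3 groups for Pdcd1lg2, Havcr2 and Tigit, as it was for 12.5% of all genes. Its deviation from the group mean was, for Tigit, -0.23 in BCR-RET, -0.18 in FGFR1OP-RET and -0.19 in BCR-ABL cells, and for Havcr2 -0.34, -0.35 and -0.18. Cd274 was lowest on replicate 3 in all groups, as were 6.53% of all genes. Pdcd1 deviations stayed within -0.16 to 0.10 and followed no common order. The sources used here do not say what the replicate numbers stand for, and their part in the differences was tested only by the fits with the number as a block.

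**Figure D3:**
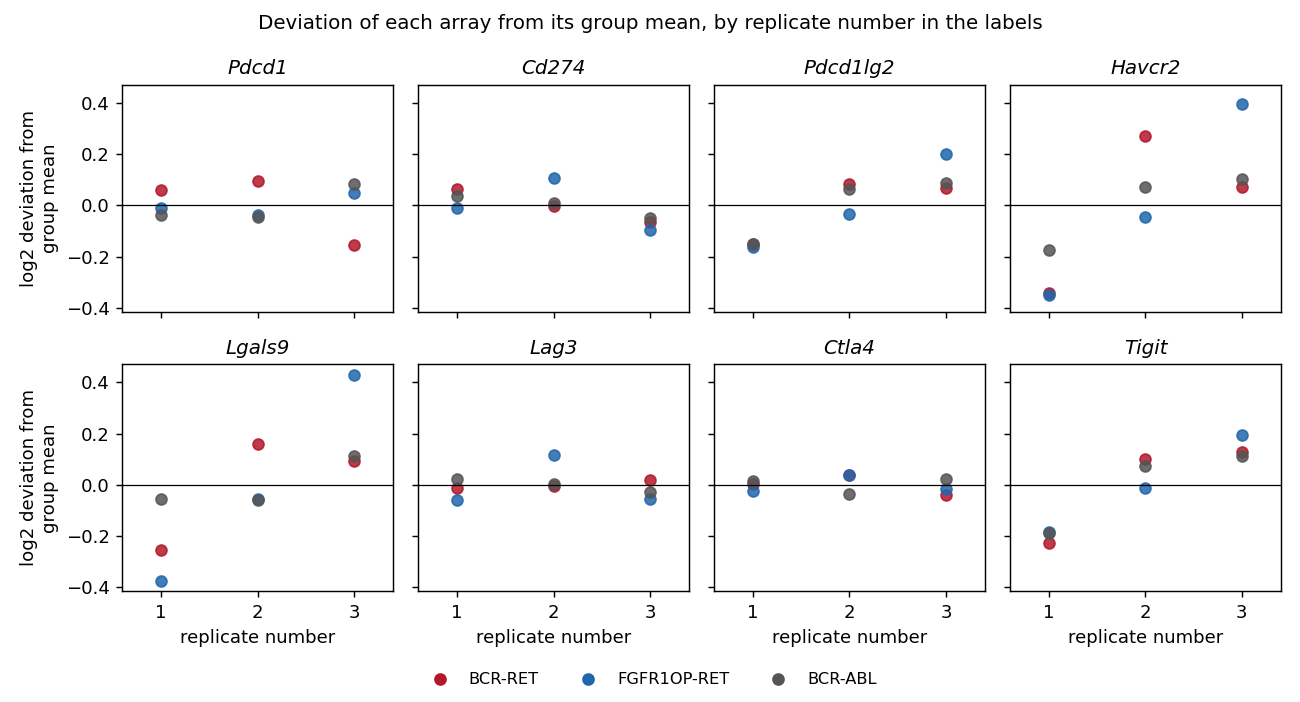
Deviation of each array from the mean of its fusion group (log2), by replicate number in the labels, for the 8 checkpoint genes; colours are the fusions. For Tigit the 3 points of replicate 1 lie together between -0.23 and -0.18, whereas Pdcd1 shows no order shared by the groups.

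The binding partners and relatives of the checkpoint proteins were read from 9 lists with 102 measured genes. In BCR-RET against BCR-ABL 2 were higher and 1 lower, in FGFR1OP-RET against BCR-ABL 7 were higher, and in BCR-RET against FGFR1OP-RET 2 were higher and 5 lower. These were 2.94%, 6.86% and 6.86% of the 102, beside the 0.587%, 1.02% and 1.33% of all genes, and the list medians were 0.04, 0.02 and 0.01. The lists were also chosen with earlier results known. Below, counts of genes with an unadjusted p under 0.05 stand beside lists in which none passed, and 11.4%, 9.75% and 14.9% of all genes were under that level in the 3 comparisons.

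Among the relatives and partners of PD-1 and CTLA-4, few genes passed. A list of 12 genes held members of the CD28 and B7 families with some of their binding partners. Of these, Tnfrsf14, the HVEM gene, was higher in FGFR1OP-RET than in BCR-ABL cells (10.51 ± 0.23 and 9.84 ± 0.09, difference 0.67, adjusted p = 0.0152). HVEM engages BTLA and belongs to neither family. That call was lost without BCR-ABL replicate 1, 2 or 3, with adjusted p of up to 0.0763. No gene of this list passed by limma in the other comparisons, with unadjusted p under 0.05 for 2 in BCR-RET against BCR-ABL and 3 in BCR-RET against FGFR1OP-RET. Cd80, a ligand of CTLA-4 that also binds PD-L1, differed by 0.29 in BCR-RET and 0.39 in FGFR1OP-RET cells from BCR-ABL cells (adjusted p = 0.285 and 0.113).

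Of 7 genes of PD-1 signalling, Csk, a kinase that restrains Src family kinases, was lower in BCR-RET than in FGFR1OP-RET cells (difference -0.35, adjusted p = 0.0499). The Csk call was lost without any 1 of the arrays except FGFR1OP-RET replicate 3, with adjusted p of up to 0.171. Ptpn11, which encodes SHP-2, had means of 11.26, 11.34 and 11.39 in BCR-RET, FGFR1OP-RET and BCR-ABL cells and did not pass (adjusted p = 0.530 for BCR-RET against BCR-ABL). No gene of this list passed by limma against BCR-ABL, with unadjusted p under 0.05 for 3 genes in BCR-RET and 1 in FGFR1OP-RET.

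The 20 transcription factors tied to Pdcd1 or to T cell exhaustion held a single gene that passed, Irf9, part of the complex that carries type I interferon signals to DNA. Irf9 averaged 9.78 ± 0.08 in BCR-RET cells, 10.35 ± 0.07 in FGFR1OP-RET cells and 9.81 ± 0.11 in BCR-ABL cells. It was higher in FGFR1OP-RET than in BCR-ABL cells (0.54, adjusted p = 0.00784) and lower in BCR-RET than in FGFR1OP-RET cells (-0.57, adjusted p = 0.00604), and both calls held without each array in turn. Pdcd1 was at its highest with BCR-RET, and whether Irf9 has a part in its differences was not tested. Nfatc1 and Tox, known as regulators of Pdcd1 in T cells, differed between BCR-RET and BCR-ABL cells by -0.12 and 0.0036 (adjusted p = 0.430 and 0.982). In BCR-RET against BCR-ABL no gene of the 20 passed by limma, and 3 had an unadjusted p under 0.05.

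None of 12 regulators of PD-L1 passed by limma in any comparison, with unadjusted p under 0.05 for 4 in BCR-RET against BCR-ABL, 3 in FGFR1OP-RET against BCR-ABL and 4 in BCR-RET against FGFR1OP-RET. Irf1, which drives Cd274 after interferon, differed from BCR-ABL by 0.18 with BCR-RET and 0.38 with FGFR1OP-RET (adjusted p = 0.480 and 0.101). Cmtm6, which keeps PD-L1 at the cell surface, differed by 0.05 and 0.03 (adjusted p = 0.912 and 0.974).

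The relatives of the TIM-3, LAG-3 and TIGIT systems gave the following. Among 8 further galectin genes, counting that of the galectin-3 binding protein, this last gene, Lgals3bp, was higher in FGFR1OP-RET than in BCR-ABL cells (0.55, adjusted p = 0.0295), a call lost without BCR-ABL replicate 1, 2 or 3, BCR-RET replicate 3 or FGFR1OP-RET replicate 2 or 3 (adjusted p up to 0.146). No gene passed by limma among 7 of the TIM family and TIM-3 partners, where unadjusted p was under 0.05 for 0 genes in BCR-RET and 2 in FGFR1OP-RET set against BCR-ABL and 1 in BCR-RET set against FGFR1OP-RET. Likewise none passed among 8 LAG-3 ligands and MHC class II genes, with 0, 0 and 1 at that unadjusted level in the same comparisons. Of 9 nectin and PVR family genes, Cd96, a receptor that shares the ligand PVR with TIGIT, was higher in BCR-RET cells (7.05 ± 0.12) than in FGFR1OP-RET cells (6.37 ± 0.11; difference 0.68, adjusted p = 0.00799) and BCR-ABL cells (6.54 ± 0.13; difference 0.50, adjusted p = 0.0465). The first Cd96 call held without each array in turn, and the second was lost without any 1 of the arrays except BCR-RET replicate 1 (adjusted p up to 0.196). Pvr itself did not pass, with means of 8.92, 9.11 and 8.82 in BCR-RET, FGFR1OP-RET and BCR-ABL cells.

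Other inhibitory receptors and ligands, 19 in all, held more genes that passed than any other of the 9 lists. In FGFR1OP-RET cells Cd200r1, the receptor of CD200, was higher than in BCR-ABL cells (8.86 ± 0.15 and 8.17 ± 0.08, difference 0.69, adjusted p = 0.00574), and this held without each array in turn. The inhibitory Fc receptor gene Fcgr2b (1.21, adjusted p = 0.0366), the receptor gene Pilra (1.03, adjusted p = 0.0162) and Nt5e, the ecto-nucleotidase CD73 (0.51, adjusted p = 0.0238), were higher too. These 3 calls were lost without 7, 4 and 4 of the 9 arrays, all of them without BCR-ABL replicates 1 and 2, with adjusted p of up to 0.173, 0.109 and 0.137. The other arrays were BCR-ABL replicate 3, BCR-RET replicates 2 and 3 and FGFR1OP-RET replicates 2 and 3 for Fcgr2b, FGFR1OP-RET replicates 2 and 3 for Pilra, and BCR-ABL replicate 3 and BCR-RET replicate 2 for Nt5e.

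In BCR-RET cells Cd48 was higher than in FGFR1OP-RET cells (10.84 ± 0.16 and 10.20 ± 0.08, difference 0.64, adjusted p = 0.00591) without exception among the arrays left out. Against BCR-ABL, Cd48 was higher (0.45, adjusted p = 0.0420) and its receptor gene Cd244a lower (-0.39, adjusted p = 0.0300) in BCR-RET cells. The Cd48 call was lost without each single array and the Cd244a call without any except FGFR1OP-RET replicate 3 (adjusted p up to 0.173 and 0.160). Cd200r1, Fcgr2b and Pilra were lower in BCR-RET than in FGFR1OP-RET cells, with differences of -0.75, -1.20 and -0.86 (adjusted p = 0.00515, 0.0374 and 0.0393). Of these, Cd200r1 held without each array. The Fcgr2b call held only without BCR-ABL replicate 1 or FGFR1OP-RET replicate 1 (otherwise up to 0.128), and the Pilra call only without FGFR1OP-RET replicate 1 (otherwise up to 0.139).

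Interferon response genes were read beside Lgals9 and Cd274, which are known to respond to interferon. Of 9 measured, 4 were higher in BCR-RET and 5 in FGFR1OP-RET than in BCR-ABL cells, none was lower, and the medians were 0.67 and 0.80, beside 0.371% and 0.787% of all genes tested higher, and medians over all genes of 0.03 and 0.00145. Cxcl10, a chemokine gene, stood first in BCR-RET cells (1.16, adjusted p = 0.00153) and Oas2, an antiviral synthetase gene, in FGFR1OP-RET cells (1.94, adjusted p = 0.000507), and neither call was lost without any 1 array. Of the 4 with BCR-RET, the remaining 3, Ifit1 (1.05), Oasl2 (0.76) and Ifit3 (0.69), were all lost without BCR-ABL replicate 2, which left 1 of the 4. Ifit1 was also lost without BCR-RET replicate 2 or 3 and Oasl2 without BCR-ABL replicate 1 or 3 or BCR-RET replicate 1 (adjusted p up to 0.0704 for Ifit1, 0.113 for Oasl2 and 0.0646 for Ifit3). With FGFR1OP-RET the count was 3 without BCR-ABL replicate 2, where Usp18 and Ifit1 were lost, and 4 to 6 without each other array. The Ifit1 call with FGFR1OP-RET held only without BCR-RET replicate 1 or 2 (otherwise adjusted p up to 0.119). Between BCR-RET and FGFR1OP-RET cells 2 were higher (Cxcl10, 0.78, and Ifit3, 0.46) and 2 lower (Oas2, -1.27, and Irf7, -0.71), with a median of -0.01, beside 0.476% of all genes tested higher and 0.853% lower. Adjusted p for these 4 were 0.00863, 0.0439, 0.00338 and 0.0260. The Oas2 call held without each array; that of Cxcl10 was lost without FGFR1OP-RET replicate 2 (adjusted p = 0.0501), that of Irf7 without 5 arrays (BCR-ABL replicate 3, BCR-RET replicates 1 and 3, FGFR1OP-RET replicates 1 and 2; up to 0.108) and that of Ifit3 without any except BCR-RET replicate 3 (up to 0.139). Whether the interferon response has a part in the checkpoint differences was not tested.

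Markers of cell types that carry checkpoint receptors were checked on every array. BaF3 is described as a pro-B line. Of 10 measured B lineage markers Cd79b was highest at 9.75 and Rag2 lowest at 5.37 as 9-array means, with Pax5 at 7.53. The median of all genes was 8.19, and every one of these markers except Cd79b lay below it. Of 12 T and NK markers, Lat, an adaptor of T and mast cells, was at 9.62, the other 11 lay below the median of all genes, and Klrb1c was lowest at 4.76. Macrophage and dendritic markers ran from 10.22 for Cd68 to 6.94 for Xcr1, with the macrophage markers Adgre1 at 9.58 and Csf1r at 7.12. Apart from Cd68, Adgre1 and Itgam (8.39), all markers of this list lay below the median of all genes. Levels of different probe sets are not comparable as amounts of RNA, and without detection calls a low value may be background.

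The mean of the 12 T and NK markers ran from 7.03 to 7.06 on BCR-RET arrays, 6.88 to 6.92 on FGFR1OP-RET arrays and 6.96 to 6.99 on BCR-ABL arrays. The groups did not overlap, and BCR-RET was highest. The 10 B lineage markers averaged 7.03 to 7.05 with BCR-RET, 6.90 to 7.01 with FGFR1OP-RET and 6.94 to 7.0 with BCR-ABL. Here too BCR-RET lay above both other groups without overlap. The 9 macrophage and dendritic markers averaged 8.01 to 8.03, 8.04 to 8.23 and 7.98 to 8.0, in the same order. With arrays set to a common median, the BCR-RET minus BCR-ABL differences of genes moved by a median of -0.06. Of all 3 lists a single gene passed, Lat, higher in BCR-RET than in FGFR1OP-RET cells (0.32, adjusted p = 0.0410, lost without any 1 array except FGFR1OP-RET replicate 1 and up to 0.148). Against BCR-ABL no marker passed by limma, with unadjusted p under 0.05 for 1 T and NK marker in each RET fusion and 1 macrophage marker in FGFR1OP-RET. Between the RET fusions 2 B lineage and 3 macrophage and dendritic markers were under that level. The part of these small shifts in the checkpoint differences was not tested.

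**Figure D4:**
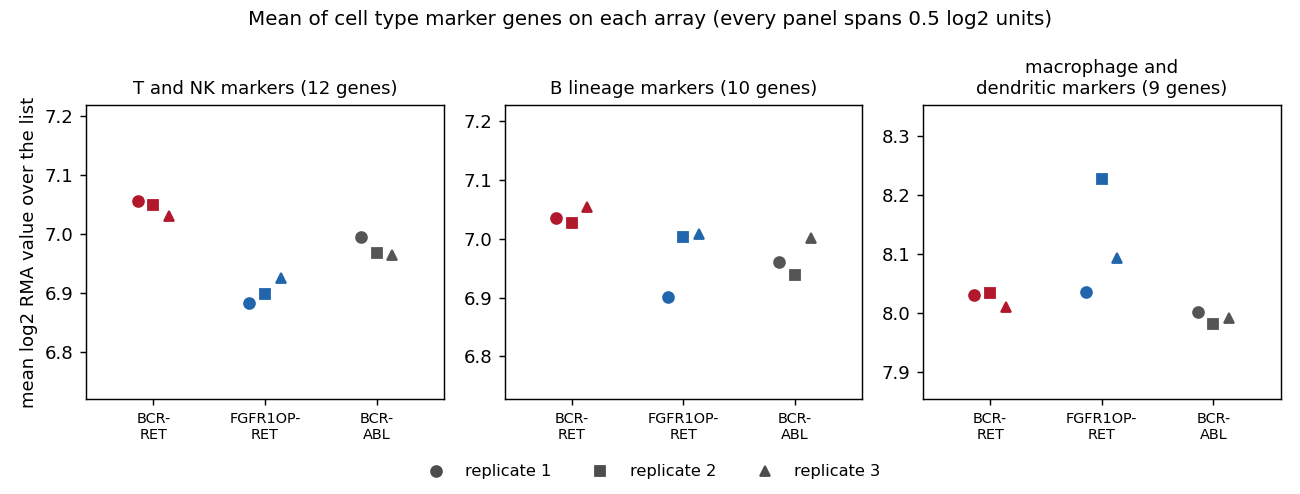
Mean log2 RMA value of the T and NK, B lineage and macrophage and dendritic marker genes on each array, by fusion, with replicate numbers as symbols; each panel spans the same number of log2 units. On BCR-RET arrays T and NK markers lie between 7.03 and 7.06 and B lineage markers between 7.03 and 7.05, both above the other groups.

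Genes with the profile most like each checkpoint gene that passed were found by the root mean square difference over the 9 arrays, after centring each gene on its mean. Nearest to Pdcd1 were Tnfrsf9, a costimulatory receptor of activated T cells (0.43), the mucin gene Muc13 (0.44) and the cytokine gene Il6 (0.47). These distances compare with a root mean square of 0.94 for Pdcd1 around its own mean. Tnfrsf9 had means of 11.97, 10.17 and 10.79, Muc13 of 12.22, 11.17 and 11.10, and Il6 of 10.89, 9.82 and 9.82, each in BCR-RET, FGFR1OP-RET and BCR-ABL cells. All 3 were highest with BCR-RET, like Pdcd1, but Tnfrsf9 was lower with FGFR1OP-RET than with BCR-ABL, unlike Pdcd1. Distances were not scaled, so only genes with large differences can lie near Pdcd1.

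Nearest to Havcr2 were the chemokine receptor gene Ccr4 (0.21) and Akr1c12 (0.24) and Akr1c13 (0.25), which encode aldo-keto reductases, against 0.62 for Havcr2 around its own mean. In BCR-RET, FGFR1OP-RET and BCR-ABL cells Ccr4 had means of 9.83, 9.26 and 10.26, Akr1c12 of 10.81, 9.72 and 10.89, and Akr1c13 of 10.34, 9.36 and 10.32. All 3 were lowest with FGFR1OP-RET, like Havcr2, but Akr1c12 was nearly level between BCR-RET and BCR-ABL and Akr1c13 was slightly higher with BCR-RET. Nearest to Lgals9 were Csf2rb2, the interleukin-3-specific beta chain of mouse (0.19), Pdzk1ip1 (0.20) and Bpifc (0.20), against 0.50 for Lgals9 itself. Csf2rb2 averaged 12.09, 11.74 and 11.18 in that order of fusions. For Cd274 the nearest were Rbp3, Acot11 and Aimp2, each at 0.07, against 0.17 for Cd274 itself.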

How the data were processed

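The deposited values are log2 signals, 1 for each probe set on each array. Per the submitters' processing notes the authors used RMA and Affymetrix Expression Console, and for its version, the annotation and the build the sources used here give nothing. RMA quantile-normalizes, which would hide a shift shared by most transcripts. Over all 35557 probe sets, not only the 19938 genes tested, array medians lay between 8.01 and 8.04. Arrays correlated over these probe sets at 0.993 to 0.996 within and 0.989 to 0.996 between groups. These medians do not show that the tested genes were level. Setting arrays to a common median moved gene differences by a median of -0.06 in BCR-RET against BCR-ABL. The shift was -0.02 in FGFR1OP-RET against BCR-ABL and -0.04 in BCR-RET against FGFR1OP-RET. The number of arrays limits the precision; no detection calls or scanner values were used.

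Of 35557 probe sets, 21789 carried 1 symbol in the platform annotation, 1621 several and 12147 none. Symbols were matched through Entrez identifiers to RefSeq (GRCm38.p6), which changed 0 symbols; 91 identifiers were not in it. The probe set with the highest 9-array mean was kept for each of 999 genes with several, leaving 19938 genes. The deposited log2 values were fitted with limma 3.58.1 (lmFit, eBayes) in R 4.3.3, with a mean per fusion and 1 spread over all 9 arrays, after a test of the fit on simulated data. The 8 genes, 13 further lists of related and marker genes (142 of 151 genes measured) and the tests were chosen with earlier results of these data known. Genes named beside the 8 were at most 4 per list and comparison, by size among those past the threshold, the 3 nearest profiles of each gene that passed, and a few partners in binding or signalling named for their role after their values were seen.

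Replicate numbers are shared by the groups. Deviations of same-numbered arrays from their group means were correlated across genes, which do not stand for replicates. Numbers were treated as pairs where all 3 correlations were above 0.1. For BCR-RET and BCR-ABL they were 0.617, 0.155 and 0.367, so blocked values stand beside that comparison where they change a call. Arrays of different numbers gave -0.478 to 0.222 there. The highest of these was above the 0.155 of number 2, so pairing of number 2 is not shown. With FGFR1OP-RET, number 2 gave r of -0.128 against BCR-ABL and -0.152 against BCR-RET, and those numbers were not treated as pairs. Numbers 1 and 3 gave 0.382 and 0.400 against BCR-ABL, and 0.498 and 0.410 against BCR-RET.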

Additional observations from a re-analysis of the deposited data

Results flagged for a closer look

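The responses of the 2 RET fusions, each taken against BCR-ABL, differed by the direct test of BCR-RET against FGFR1OP-RET for 1 of the 8 checkpoint genes, Pdcd1, with a log2 difference of 1.90 (limma adjusted p = 6.88e-06, higher on 3 of 3 BCR-RET arrays). Among related genes the same test passed, higher in BCR-RET, for Cd96 (0.68), Cd48 (0.64), Cxcl10 (0.78), Ifit3 (0.46) and Lat (0.32). It passed, lower in BCR-RET, for Oas2 (-1.27), Fcgr2b (-1.20), Pilra (-0.86), Cd200r1 (-0.75), Irf7 (-0.71), Irf9 (-0.57) and Csk (-0.35). Groups of 3 arrays are too small for a check of single outlying arrays.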

How the results depend on the processing

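Both Pdcd1 calls held under all 10 other settings, as they did without each array. Checkpoint genes past the threshold in BCR-RET against BCR-ABL numbered 1 with arrays shifted to a common median or all probe sets tested, 3 with the replicate block over all groups, a filter on dim probe sets or array weights, 4 with the replicate block in a fit of these 2 groups alone (a setting chosen after seeing the data, in which Havcr2 passed with adjusted p = 0.0319, against 0.0560 over all groups), and 1 to 3 without single arrays. In FGFR1OP-RET against BCR-ABL the number was 1 with quantile normalization repeated, a variance trend, all probe sets tested or only the 2 groups fitted, and 0 to 2 without single arrays. In BCR-RET against FGFR1OP-RET it was 4 with the replicate block, 2 with quantile normalization repeated, array weights or the block in 2 groups alone, and 1 to 3 without single arrays. Genes past the threshold in BCR-RET against BCR-ABL, 117, became 362 with the replicate block, 293 with array weights, 73 with all probe sets, 56 with 2 groups, 377 with the block in 2 groups and 28 to 114 without single arrays. The 203 of FGFR1OP-RET against BCR-ABL became 576 with the block, 121 with all probe sets, 94 with 2 groups and 70 to 185 without single arrays. The 265 of BCR-RET against FGFR1OP-RET became 1135 with the block, 101 with all probe sets, 34 with 2 groups, 414 with the block in 2 groups and 86 to 194 without single arrays. Higher genes made up 63.2% of calls in BCR-RET against BCR-ABL and 39.3% with a common median, and 35.8% and 18.6% in BCR-RET against FGFR1OP-RET.

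The block over all groups, where numbers did not pair, also passed Tigit in FGFR1OP-RET against BCR-ABL (adjusted p = 0.00653), and Havcr2, Lgals9 and Pdcd1lg2 in BCR-RET against FGFR1OP-RET (0.00262, 0.0174 and 0.0290). The Cd274 difference between RET fusions turned to -0.031 with a common median, -0.0095 with array weights and ran from -0.043 to 0.059 without single arrays; that of Lag3 in BCR-RET against BCR-ABL turned to -0.00021 with quantile normalization repeated. None of these passed. Ctla4 had no value under the filter on dim probe sets. The cause of each change was not tested, including where fewer arrays or more features entered the fit.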
